A study of Mus musculus with 32 samples.

Results

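BV-2, a transformed mouse line derived from microglia, which are the macrophages that reside in the brain, was exposed to lipopolysaccharide (LPS), a component of the bacterial outer membrane that activates these cells, and transfected with a synthetic mimic of miR-7a or of miR-29a. The comparison described here set the 4 LPS_miR-7a libraries against the 4 LPS_miR-29a libraries, 8 of the 32 RNA sequencing libraries of the series, chosen by their labels and not by any measured value. The series holds 8 groups of 4 libraries, which combine vehicle (VEH) or LPS at 10 ng/ml for 24 h with a scramble, miR-7a, miR-29a or miR-146a mimic. No scramble library entered the contrast, so the control group that the mimics of the series share is not part of the fit. The scramble libraries did enter the restoration of the deposited values described below, which weighed levels across all 32 libraries. All 8 libraries come from the same line, with LPS and a mimic in each, and their treatment labels differ in which microRNA was supplied. The sample labels describe LPS treatment followed by transfection, whereas the methods of the study describe transfection first, and the order was not resolved here. The labels also name a glioblastoma cell type, and 2 of the LPS_miR-29a libraries carry a time tag that refers to mice. Both are at odds with the title of the samples, which was followed.

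MicroRNAs are short RNAs that guide Argonaute proteins to messenger RNAs, mostly through pairing of the seed (bases 2 to 8 of the microRNA) with sites in 3′ untranslated regions (3′ UTRs), which lowers the stability and translation of the target. A mimic is a synthetic duplex that supplies 1 mature microRNA from outside the cell. miR-29 is best known for its sites in DNA methyltransferase and collagen transcripts, and miR-7 for growth factor and insulin signalling and for alpha-synuclein. The mature sequences, taken from RefSeq on build GRCm38, are given 5′ to 3′ with the seed in capitals, because the seeds define the site classes used below. miR-7a-5p is encoded at chr7:78888295-78888317 on the plus strand (Mir7-2) and at chr13:58392841-58392863 on the minus strand (Mir7-1), and miR-29a-3p at chr6:31062673-31062694 on the minus strand.
miR-7a-5p: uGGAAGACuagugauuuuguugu
miR-29a-3p: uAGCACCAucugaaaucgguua
The site that pairs with each seed is GTCTTCC for miR-7a and TGGTGCT for miR-29a in the transcript.

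The deposited values are estimated counts per gene that had lost their decimal marks, which were restored before any test. After restoration the LPS_miR-7a libraries held 6.95, 9.01, 11.7 and 11.8 M counts (M for mega) and the LPS_miR-29a libraries 5.86, 13.8, 15.8 and 7.35 M counts (replicates 1 to 4), so that 3 counts, taken as the floor of detection, correspond to 0.190 to 0.512 CPM (counts per 1 M counts of the library) and cover counting error only. Small structural RNA genes (snRNA, snoRNA and the like) took 3.30 ± 0.330% of the counts in LPS_miR-7a and 3.85 ± 0.893% in LPS_miR-29a (SD, n = 4), a difference that a two-sided exact permutation test did not separate from the spread (p = 0.314, the smallest possible p being 0.0286). The difference of -0.548 percentage points ran from -0.163 without LPS_miR-29a replicate 1 to -0.850 without LPS_miR-29a replicate 3 (exact permutation p = 0.6 and 0.0857). Mitochondrially encoded genes took 0.853% to 1.99% of the counts in LPS_miR-7a and 1.71% to 3.99% in LPS_miR-29a. Of 20 microglia and macrophage markers, 17 were expressed highly enough to be tested, with a summed level of 4930.3 to 6765 CPM in LPS_miR-7a and 4261 to 5396 CPM in LPS_miR-29a. Sall1, which defines microglia in the brain, reached at most 0.0774 CPM, and Cx3cr1 and C1qa at most 1.57 and 1.01 CPM. The 10 astrocyte and glioma markers summed to at most 0.986 CPM and Gfap and Sox2 were at 0 in all 8 libraries, which goes against the glioblastoma label, and the 8 neuron markers summed to at most 1.09 CPM. The 6 oligodendrocyte markers summed to 23.1 to 32.7 CPM, mostly through Cnp (18.2 to 28.8 CPM), with Mog and Mag at most at 0.0986 CPM. The 11 fibroblast and endothelial markers summed to 218 to 249 CPM in LPS_miR-7a and 280.3 to 309.7 CPM in LPS_miR-29a, nearly all of it Kdr, which was not called (log2 fold change -0.36, adjusted p = 0.122), while each of the other 10 reached at most 3.29 CPM and Dcn was at 0 in every library. The 2 groups did not overlap in this sum, and its part in the results was not tested.

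Of 12947 genes tested, 478 (3.69%) differed at an adjusted p under 0.05 and an absolute log2 fold change over 0.3 in limma-voom, of which 304 (2.35%) were higher and 174 (1.34%) lower in LPS_miR-7a than in LPS_miR-29a. The difference exceeded 2-fold for 142 of the higher and 80 of the lower genes. Integrin alpha X (Itgax), tartrate-resistant acid phosphatase (Acp5), the DNA methyltransferase Dnmt3a and the thioredoxin-binding protein Txnip were on the higher side, and the acute-phase genes Saa3, Hp, Lcn2 and Cp on the lower side. In 463 of the 478 genes the CPM of the groups did not overlap (1473 of all genes tested, 11.4%, did not overlap). The study describes the replicates of this line as independent experiments, while the labels do not say whether the libraries came from separate cultures, and the p-values measure the spread between these samples. The median log2 fold change over all genes tested was 0.00138. The size of the list depended on single libraries: it was 229, 248 and 313 without LPS_miR-29a replicate 1, 3 or 4, and 225, 208 and 234 without LPS_miR-7a replicate 2, 3 or 4. It also depended on the model, since a fit that blocks on the replicate number called 1204 genes, 717 higher and 487 lower. The counts of the gene lists under that block are given with the processing checks at the end. Of the 478 called genes, 183 overlap a gene on the other strand, and the strand setting of the counting is not given in the sources used here, so reads of such partners may be mixed. The share of all genes tested with such an overlap was not counted.

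**Figure D1:**
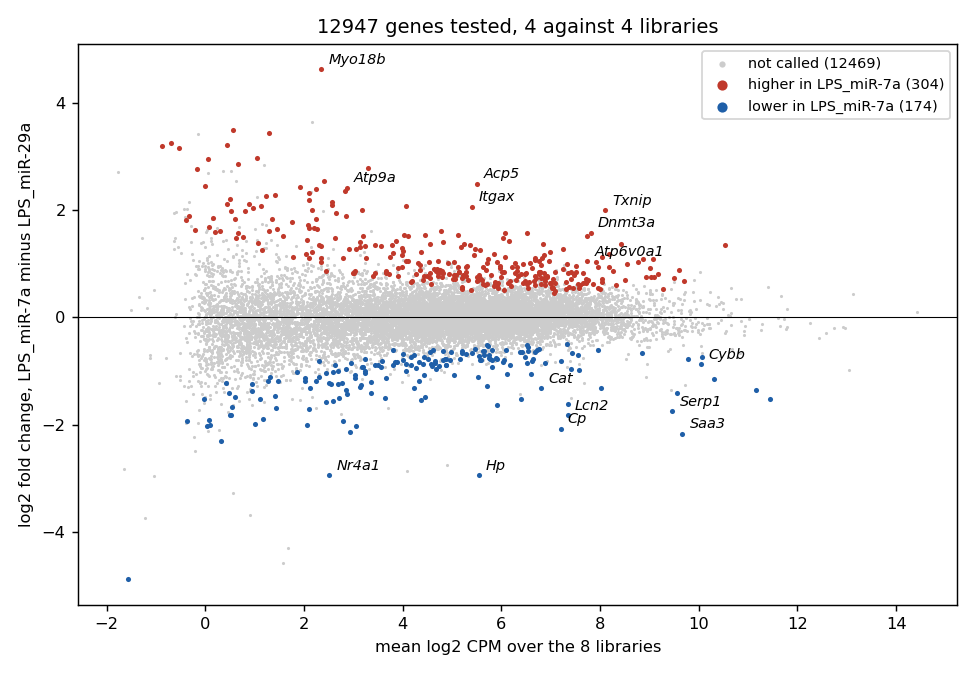
Log2 fold change (LPS_miR-7a minus LPS_miR-29a) against the mean log2 CPM over the 8 libraries for the 12947 genes tested. Red points are the 304 genes called higher and blue points the 174 called lower in LPS_miR-7a, and grey points were not called. Labelled genes run from Hp at -2.94 to Myo18b at 4.62, and some unlabelled genes lie below Hp.

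Genes with miR-29a seed matches lay higher, and genes with miR-7a seed matches lower, in LPS_miR-7a than genes with neither. For 10906 tested protein-coding genes, the longest annotated 3′ UTR (GENCODE M21, GRCm38) was searched on the transcript strand for the letters GTCTTCC (miR-7a) and TGGTGCT (miR-29a). Among the 1411 genes with a miR-29a site and no miR-7a site (12.9% of those searched), 54 (3.83%) were called higher and 4 (0.283%) lower in LPS_miR-7a, against 2.63% higher and 1.39% lower over all 10906. Among the 1199 genes with a miR-7a site and no miR-29a site (11%), 21 (1.75%) were higher and 31 (2.59%) lower. The median log2 fold changes were 0.0864 with a miR-29a site, -0.0604 with a miR-7a site and 0.00879 with neither, and 0.00687 for the 458 genes with both. These shifts were small beside the interquartile range of the genes with neither site, -0.184 to 0.205. Genes with 1, 2, and 3 or more miR-29a sites had medians of 0.0828, 0.0816 and 0.268 (1221, 158 and 32 genes), and those with 1, and 2 or more miR-7a sites medians of -0.0535 and -0.115 (1056 and 143 genes). Where an A followed the site, a feature of strong sites, the medians were 0.104 for miR-29a (288 genes, 21 higher and 1 lower) and -0.107 for miR-7a (355 genes, 4 higher and 15 lower). Matches to the seed of miR-146a, a mimic that none of the 8 libraries received, gave a median of 0.00411 over 858 genes with neither of the other sites, of which 26 (3.03%) were higher and 10 (1.17%) lower.

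Genes with sites have longer 3′ UTRs (medians of 2309 bases with a miR-29a site, 2170 with a miR-7a site and 1054 with neither), so the classes were also read within bands of length. The medians with a miR-29a site, a miR-7a site and neither were 0.162, -0.0285 and 0.0307 at 500 to 1000 bases, 0.116, -0.0825 and 0.0103 at 1000 to 2000, and 0.0683, -0.0518 and 0.00895 at 2000 to 4000. The order of the medians was the same in each band, but that of the called shares was not: at 1000 to 2000 bases 2.59% of the genes with a miR-29a site and 3.16% of those with neither were higher, and at 500 to 1000 bases 4 genes with a miR-7a site were higher and 4 lower. Without any 1 of the 8 libraries the medians stayed between 0.0771 and 0.112 for miR-29a sites and between -0.0760 and -0.0462 for miR-7a sites, while the called genes ranged from 20 to 85 higher and 2 to 11 lower with a miR-29a site, and from 8 to 39 higher and 11 to 38 lower with a miR-7a site, beside 143 to 444 higher and 46 to 191 lower over all genes searched. With a miR-7a site the higher genes outnumbered the lower ones without LPS_miR-7a replicate 1 (39 and 38) or replicate 4 (13 and 11). The classes are described by counts and medians, with no test, and a match does not show that a site is bound.

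**Figure D2:**
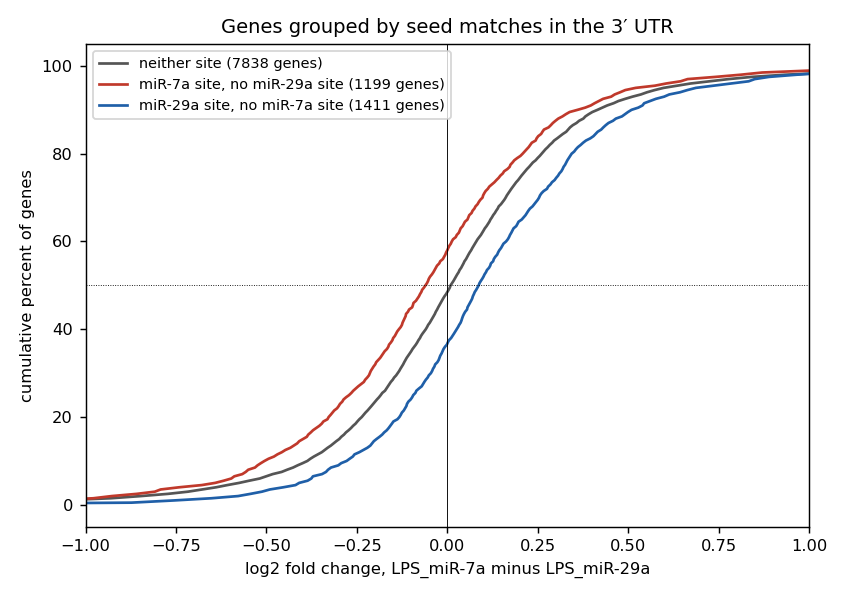
Cumulative percent of genes against the log2 fold change (LPS_miR-7a minus LPS_miR-29a, shown from -1 to 1) for genes with a miR-29a seed match only (blue, 1411 genes), a miR-7a seed match only (red, 1199 genes) and neither (grey, 7838 genes). The blue curve lies to the right and the red curve to the left of the grey one, with medians of 0.0864, -0.0604 and 0.00879.

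Sites in 5 called genes for each microRNA are shown as examples. All 5 shown for miR-29a were called higher, and all 5 shown for miR-7a lower, in LPS_miR-7a. They do not represent all called genes with sites. With a miR-29a site and no miR-7a site 4 genes were lower, and with a miR-7a site and no miR-29a site 21 were higher. Whether any of these sites acts was not tested. Each line gives the transcript strand 5′ to 3′, with the seed match in capitals, and the coordinates are those of the capitals. The miR-29a sites lie at chr12:3908999-3909005 (plus strand) in Dnmt3a, chr4:47312500-47312506 (plus strand) in Col15a1, chr9:108984595-108984601 (plus strand) in Col7a1, chr3:95509062-95509068 (plus strand) in Ctsk and chr7:68738096-68738102 (minus strand) in Arrdc4, all in the 3′ UTR on GRCm38.
Dnmt3a: tacaaaatgtacTGGTGCTt
Col15a1: caatccacatatTGGTGCTa
Col7a1: ctgtgctccattTGGTGCTa
Ctsk: ttctcctctcgtTGGTGCTt
Arrdc4: atttagaaacccTGGTGCTt
The miR-7a sites lie at chr3:58522827-58522833 (minus strand) in Serp1, chr2:103454194-103454200 (minus strand) in Cat, chr11:83575332-83575338 (minus strand) in Ccl9, chr12:85476536-85476542 (plus strand) in Fos and chr1:169949893-169949899 (minus strand) in Hsd17b7, again in the 3′ UTR.
Serp1: aggatcagtctaGTCTTCCt
Cat: tacttgcatcatGTCTTCCa
Ccl9: ctactttctttgGTCTTCCc
Fos: gaggagaaacacGTCTTCCc
Hsd17b7: gctaagtaacttGTCTTCCt
Dnmt3a holds 5 miR-29a matches in a 3′ UTR of 6696 bases and Col7a1 holds 2 in 363 bases. Dnmt3a, Ctsk and Fos carry 1 match for the other seed as well.

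Of the genes widely described as miR-29 targets, 31 of 48 were tested, and 6 were higher in LPS_miR-7a and 0 lower, with a median of 0.342 (25 of 31 above 0). Dnmt3a (chr12:3806007-3914443), the de novo DNA methyltransferase, was at 268, 377, 339 and 389 CPM in LPS_miR-7a and at 109, 122, 104 and 119 CPM in LPS_miR-29a. The lowest LPS_miR-7a library thus lay above the highest LPS_miR-29a library, and the difference was 2.99-fold (log2 fold change and its standard error, SE, 1.58 ± 0.15 SE, adjusted p = 0.000315). The LPS_scramble libraries held 283 ± 13.6 CPM (SD, n = 4), closer to LPS_miR-7a. The collagen gene Col15a1 averaged 7.84 ± 0.570 against 1.93 ± 0.355 CPM (2.00 ± 0.22 SE, adjusted p = 0.000666), and Col7a1 6.90 ± 1.33 against 2.73 ± 0.5 CPM (1.34 ± 0.23 SE, adjusted p = 0.00953). Ctsk, the collagen-degrading cathepsin K, averaged 22 ± 5.30 against 8.99 ± 1.36 CPM (1.30 ± 0.21 SE, adjusted p = 0.00724), with 36.6 CPM in LPS_scramble. The remaining called members, Tet3 and Tdg, act in the removal of DNA methylation and differed by 0.76 and 0.70 on the log2 scale. Dnmt3b, with 1 match for each seed, averaged 8.59 ± 0.641 and 9.71 ± 1.54 CPM and did not pass the test (log2 fold change -0.19 ± 0.18 SE, adjusted p = 0.622). Of the genes described as miR-7 targets, 38 of 43 were tested, and 0 were higher and 1 lower (Fos), with a median of -0.0913 (14 of 38 above 0). The insulin receptor substrate Irs2, with 2 miR-7a matches, averaged 10.7 ± 4.13 and 6.63 ± 1.29 CPM (log2 fold change 0.62 ± 0.30 SE, adjusted p = 0.313) and the kinase Pak1 43 ± 1.73 and 42.1 ± 4.54 CPM (log2 fold change 0.03 ± 0.13 SE, adjusted p = 0.948), and the groups overlapped for both. These lists are set beside all genes tested, of which 2.35% were higher and 1.34% lower.

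Several genes for secreted acute-phase proteins and inflammatory cytokines were lower in LPS_miR-7a, while complement C3, also an acute-phase protein and set here after its value was seen, was higher (log2 fold change 1.34 ± 0.14 SE, limma-voom adjusted p = 0.000592). Serum amyloid A3 (Saa3), a secreted acute-phase protein, was at 321, 287, 328 and 435 CPM in LPS_miR-7a and 2463, 1234, 1478 and 1134 CPM in LPS_miR-29a. Haptoglobin (Hp), which binds free haemoglobin, was at 14.7, 11.8, 11.8 and 22 CPM and 231, 108, 147 and 44.7 CPM. For both genes the groups did not overlap, replicate 1 was the highest LPS_miR-29a library, and the LPS_scramble libraries lay between the means, at 778 and 26.2 CPM. The log2 fold changes were -2.16 ± 0.23 SE, adjusted p = 0.000545 for Saa3 and -2.94 ± 0.44 SE, adjusted p = 0.00379 for Hp. Lipocalin 2 (Lcn2), which sequesters bacterial siderophores, was at 68.1, 70.9, 82.8 and 81.2 CPM in LPS_miR-7a and 405, 269.8, 274 and 172 CPM in LPS_miR-29a, 3.54-fold lower (-1.82 ± 0.22 SE, adjusted p = 0.000869), with 97.4 ± 19.7 CPM in LPS_scramble. Ceruloplasmin (Cp), a copper-carrying ferroxidase, averaged 63.5 ± 10.6 against 279 ± 104 CPM (-2.07 ± 0.25 SE, adjusted p = 0.000957), and the LPS-binding protein Lbp 3.62 ± 0.632 against 15.6 ± 5.70 CPM (-2.02 ± 0.33 SE, adjusted p = 0.00731). Among the cytokines, interleukin 1 beta (Il1b) was at 3.35, 2.76, 2.94 and 3.05 CPM in LPS_miR-7a and 22, 7.69, 15.6 and 7.40 CPM in LPS_miR-29a (-1.92 ± 0.37 SE, adjusted p = 0.0158). Il1b was even across the LPS_miR-7a libraries, and within LPS_miR-29a it was higher in replicates 1 and 3 than in replicates 2 and 4. Tumour necrosis factor (Tnf) averaged 16.9 ± 2.16 against 33.3 ± 11.1 CPM (-0.90 ± 0.21 SE, adjusted p = 0.0359), a call that was lost without LPS_miR-29a replicate 1, 3 or 4 and without LPS_miR-7a replicate 2, 3 or 4.

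Natural inhibitors of interleukins 1 and 18 lay on the other side. Il1rn, the receptor antagonist of interleukin 1, averaged 139.5 ± 13.2 CPM in LPS_miR-7a and 81.8 ± 10.3 CPM in LPS_miR-29a (0.78 ± 0.14 SE, adjusted p = 0.0108), and Il18bp, which neutralises interleukin 18, averaged 13 ± 4.81 and 3.45 ± 1.26 CPM (1.89 ± 0.34 SE, adjusted p = 0.0119). Csf1, the growth factor that maintains macrophages, was at 469, 649, 675 and 718 CPM and 346, 358, 303 and 306 CPM (0.91 ± 0.16 SE, adjusted p = 0.0088), with every LPS_miR-7a library above every LPS_miR-29a library. Over the list of cytokines and their control, 3 of 14 tested members were higher and 2 lower, beside 2.35% and 1.34% of all genes tested, with a median of 0.298. The pro-inflammatory list of the study held 1 higher (Il1rn) and 3 lower members (Hp, Tnf and Cybb) of 23 tested, beside the same shares of all genes (2.35% and 1.34%), with a median of -0.267. In the list that joins nitric oxide and itaconate genes with acute-phase products (13 tested, median -0.274), the 3 lower members were the acute-phase genes Hp, Saa3 and Lcn2. The inducible nitric oxide synthase Nos2 and the itaconate enzyme Irg1 differed by 0.39 and -0.12 on the log2 scale and did not pass.

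**Figure D3:**
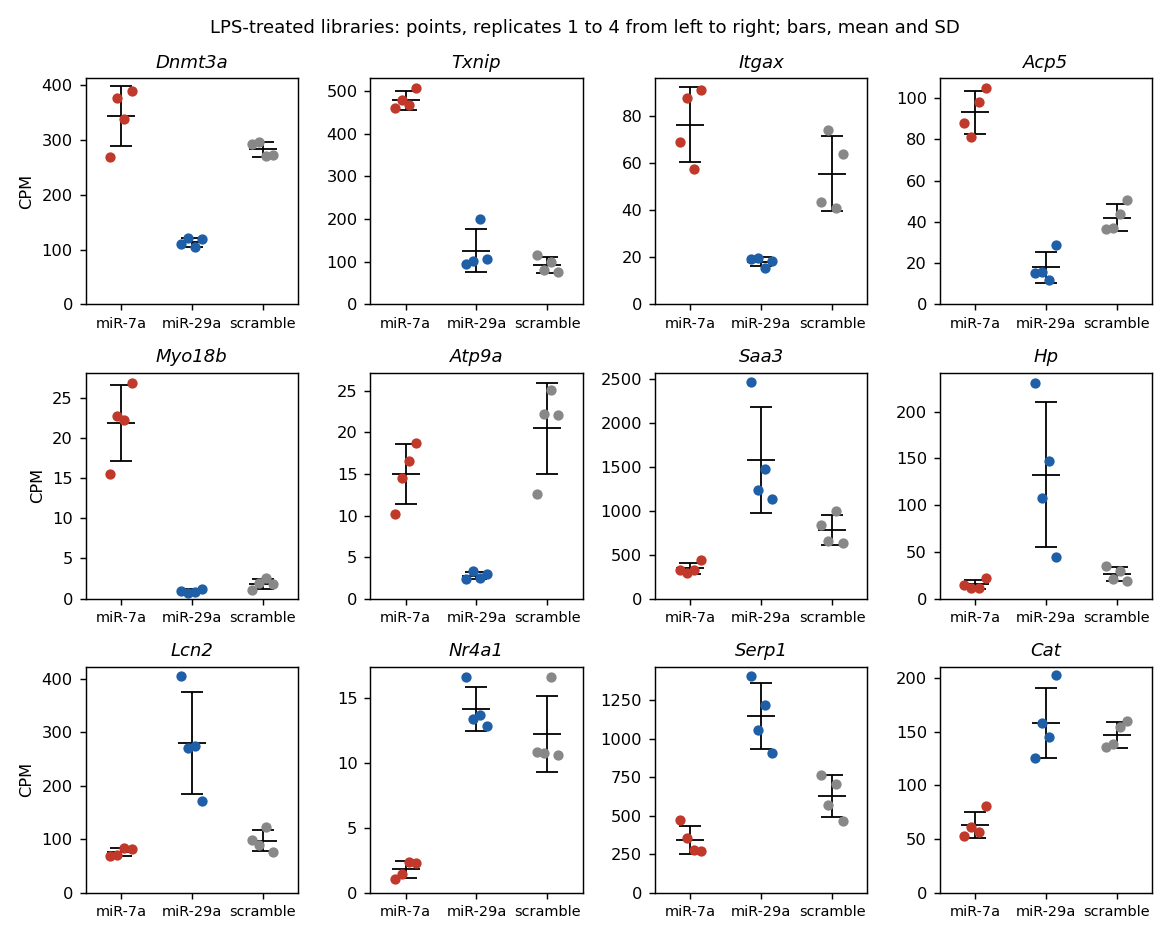
CPM of 12 genes in each LPS_miR-7a (red), LPS_miR-29a (blue) and LPS_scramble (grey) library, with the mean and SD as black bars (n = 4) and the axis starting at 0. In every panel the 4 red points lie on 1 side of the 4 blue points, as for Dnmt3a (343 against 114 CPM) and Saa3 (343 against 1577 CPM), while the grey points lie near red, near blue or between them depending on the gene.

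Of 35 genes of the LPS receptor and NF-kappa-B pathway, all 35 were tested, and 0 were higher and 3 lower, beside 2.35% higher and 1.34% lower over all genes tested, against which the counts of the lists that follow are also to be read, with a median of -0.0985. Cd14, the co-receptor that hands LPS to TLR4, averaged 37.7 ± 9.94 against 60.8 ± 4.11 CPM (-0.70 ± 0.17 SE, adjusted p = 0.0444) and lost its call in 9 alternative fits. Such counts of lost calls, here and below, include the fit on the values as deposited, beside at most 23 other alternatives per gene. Nfkbiz, an inducible co-activator of NF-kappa-B target genes, averaged 27.4 ± 1.46 against 61.2 ± 15 CPM (-1.12 ± 0.18 SE, adjusted p = 0.00572), and the third lower gene was Lbp. The receptor Tlr4 itself and the adaptor Myd88 differed by 0.04 and 0.09 on the log2 scale and did not pass. Immediate-early factors, which are switched on within minutes of a stimulus, had 0 higher and 4 lower members of 20 tested, with a median of -0.288 that ran from -0.432 to -0.00366 over the alternative fits, and with 1 to 4 lower members without any 1 library. The nuclear receptor Nr4a1 was at 1.03, 1.48, 2.40 and 2.33 CPM in LPS_miR-7a and 16.6, 13.4, 13.7 and 12.8 CPM in LPS_miR-29a, 7.63-fold lower (-2.93 ± 0.26 SE, adjusted p = 0.000309), and the LPS_scramble libraries (12.2 ± 2.94 CPM) were at the level of LPS_miR-29a. Fos averaged 5.02 ± 0.276 against 12.3 ± 3.53 CPM (-1.25 ± 0.24 SE, adjusted p = 0.0157), while Egr3 (log2 fold change -1.99, adjusted p = 0.0301) and Ier2 (-0.64, adjusted p = 0.0373) were closer to the threshold and lost their calls in 7 and 9 of the alternative fits, and Egr3 was near the floor of detection in LPS_miR-7a (0.515, 0.493, 1.01 and 1.52 CPM). One chemokine of 8 tested, the monocyte attractant Ccl9, was lower at 11.5 ± 1.66 against 33 ± 10.4 CPM (-1.48 ± 0.22 SE, adjusted p = 0.00402). The median of these 8 ran from -0.712 to -0.0970 over the alternative fits, and Ccl24, a chemokine outside the list, was higher (2.43 ± 0.29 SE, adjusted p = 0.00085). Nearly all interferon-inducible genes missed the threshold: 1 of 44 interferon-stimulated genes, near the share over all genes, was higher (Lgals3bp, 1.00 ± 0.17, SE) and 0 lower, with a median of -0.0735. Of 18 interferon-inducible GTPases 1 was higher (Gbp4, 1.94) and 1 lower (Gvin1, -0.95), both in families of near-identical copies whose reads can be split between members. In MHC class I presentation, 2 of 22 were higher and 0 lower, namely Tapbp and Tapbpl (0.94 and 1.21), the chaperones that load peptides.

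Phagocytic and lysosomal genes lay mostly on the higher side. Of 31 tested phagocytic receptors, 8 were higher and 1 lower in LPS_miR-7a (all genes tested, here and for the lists that follow, 2.35% and 1.34%), with a median of 0.461 (22 of 31 above 0). Itgax, a chain of the complement receptor CR4, was at 69.2, 87.9, 57.6 and 91.1 CPM in LPS_miR-7a and 19.1, 19.7, 15.4 and 18.5 CPM in LPS_miR-29a, 4.18-fold higher (2.06 ± 0.18 SE, adjusted p = 0.000309). The LPS_scramble libraries held 55.7 ± 16.1 CPM, which overlapped LPS_miR-7a. The mannose receptor Mrc1 averaged 96.7 ± 10.5 against 48.4 ± 11.3 CPM (1.02 ± 0.17 SE, adjusted p = 0.00862), the TAM receptor Axl, which recognises apoptotic cells, 77.2 ± 16 against 37.8 ± 11.6 CPM (1.04 ± 0.22 SE, adjusted p = 0.0216), and the inhibitory Fc receptor Fcgr2b 149 ± 12.9 against 91.1 ± 8.93 CPM (0.71 ± 0.13 SE, adjusted p = 0.0116). Mertk, whose call was lost in 11 alternative fits, the beta-glucan receptor Clec7a, the Fc receptor Fcgr3 and the scavenger receptor Colec12 were also higher, by 0.59, 0.64, 0.72 and 0.65 on the log2 scale. The scavenger receptor Stab1 was the lower member (-0.84), and Marco, another scavenger receptor, averaged 7.98 ± 2.42 and 14.3 ± 4.13 CPM without passing the test (-0.79 ± 0.28 SE, adjusted p = 0.145), both below the 42.2 CPM of LPS_scramble. Without any 1 library the count of higher receptors ranged from 3 to 11 and that of lower ones from 0 to 2.

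Of the 27 tested lysosome and phagosome genes that the study put forward as targets of miR-7a, miR-29a or miR-146a in phagocytosis, 4 were higher and 0 lower, with a median of 0.471 (23 of 27 above 0). They were the cholesterol carrier Npc2, the GM2 activator Gm2a, the alpha-mannosidase Man2b1 and the arylsulfatase Arsb, whose call was lost in 13 alternative fits (7 each for Npc2 and Gm2a), with log2 fold changes of 0.73, 0.82, 0.67 and 0.55. Npc2 averaged 824 ± 129 against 493 ± 61.5 CPM. Their adjusted p lay between 0.0245 and 0.0495, and without any 1 library between 0 and 7 members of the list were called, so this count is not firm. Of 67 other lysosomal genes, 10 were higher and 1 lower (56 of 67 above 0, median 0.223), and 7 to 11 were called higher without any 1 library. Acp5, a phosphatase of activated macrophages and osteoclasts, was at 88.1, 81.3, 97.9 and 105 CPM in LPS_miR-7a and 15.4, 15.9, 11.9 and 28.7 CPM in LPS_miR-29a, 5.61-fold higher (2.49 ± 0.22 SE, adjusted p = 0.000309). The LPS_scramble libraries held 42.1 ± 6.69 CPM and overlapped neither group. Atp6v0a1, a subunit of the proton pump, averaged 272 ± 39.2 against 130.1 ± 3.23 CPM (1.05 ± 0.14 SE, adjusted p = 0.00171), and the beta-glucuronidase Gusb and the fucosidase Fuca2 were higher by 0.75 and 0.72. The rest of the higher members were Hyal1, Acp2, Sumf1 and the cathepsins Ctsh, Ctss and Ctsk. Hgsnat, which acetylates heparan sulfate for its breakdown, was the lower member, at 43.2 ± 5.95 against 78 ± 14.5 CPM (-0.84 ± 0.17 SE, adjusted p = 0.0205), and both groups lay below LPS_scramble (123 ± 19.8 CPM). Of 25 tested genes raised in disease-associated microglia, 5 were higher (Itgax, Axl, Csf1, Gusb and Clec7a) and 0 lower, with a median of 0.407. Without any 1 library 3 to 5 of them were higher and 0 lower, and Axl lost its call in 5 alternative fits. These lists overlap in part. The macrophage markers, which include several of the same genes, had a median of 0.335 with 1 member higher (Mertk) and 1 lower (Cd14). Less RNA per cell and fewer cells of a kind cannot be told apart in such bulk libraries.

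**Figure D4:**
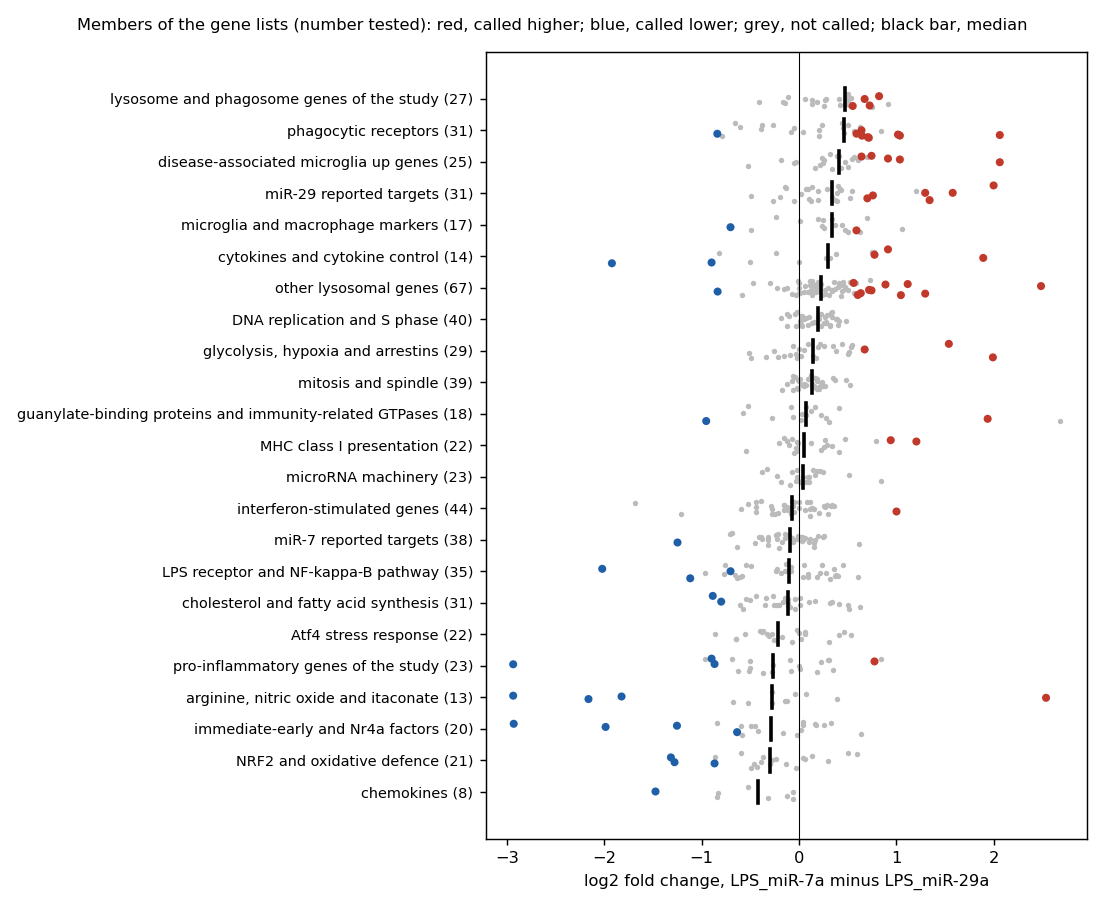
Log2 fold change (LPS_miR-7a minus LPS_miR-29a) of the tested members of each gene list, 1 point per gene, with the number tested in brackets and the list's median as a black bar. Red and blue points were called higher and lower. Lists with at least 8 tested members are drawn. Among them the highest medians are those of the lysosome and phagosome genes of the study (0.471) and the phagocytic receptors (0.461), and the lowest that of the chemokines (-0.421).

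Txnip, which inhibits thioredoxin and glucose uptake, was at 459, 478, 466 and 507 CPM in LPS_miR-7a and 94.3, 102, 201 and 107 CPM in LPS_miR-29a, 3.98-fold higher (1.99 ± 0.21 SE, adjusted p = 0.000545). The LPS_miR-7a libraries lay within a narrow range, replicate 3 stood above the other LPS_miR-29a libraries, and LPS_scramble (92.4 ± 18.8 CPM) was near LPS_miR-29a. Its relative Arrdc4 was at 35.4, 32.8, 32.7 and 29.5 CPM and 11.8, 9.75, 12.7 and 10.6 CPM (1.54 ± 0.15 SE, adjusted p = 0.000469). Together with the glycolytic enzyme Tpi1 (0.67, adjusted p = 0.0495, a call lost in 12 alternative fits), these were the 3 higher members of the list of glycolysis, hypoxia and arrestin genes (29 tested, 0 lower, median 0.148). In the list of NRF2 targets and oxidative defence, 0 of 21 were higher and 3 lower, with a median of -0.302 (6 of 21 above 0). Catalase (Cat), which breaks down hydrogen peroxide and carries a miR-7a match, was at 53.2, 61.5, 56.4 and 80.7 CPM in LPS_miR-7a and 125, 158, 145 and 203 CPM in LPS_miR-29a (-1.32 ± 0.18 SE, adjusted p = 0.00239), with 147 ± 12.1 CPM in LPS_scramble. Gclm, the regulatory subunit of glutathione synthesis, averaged 29.7 ± 3.26 against 72.4 ± 11.9 CPM (-1.28 ± 0.16 SE, adjusted p = 0.00105). Cybb, the catalytic chain of the phagocyte NADPH oxidase, averaged 695 ± 107 against 1273 ± 204 CPM (-0.87 ± 0.17 SE, adjusted p = 0.0157). In sterol and fatty acid synthesis 0 of 31 were higher and 2 lower, the elongase Elovl6 (-0.80) and the cholesterol enzyme Hsd17b7 (-0.89). Elovl6 lost its call in 5 alternative fits, apart from the deposited values, where its sign changed, and Hsd17b7 in 6. Without any 1 library the list had 0 to 1 higher and 0 to 4 lower members.

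The largest differences on the higher side included genes of low level outside these lists. Myo18b, a myosin best known from muscle, was at 15.5, 22.8, 22.2 and 26.8 CPM in LPS_miR-7a and 0.941, 0.641, 0.802 and 1.23 CPM in LPS_miR-29a, 24.5-fold higher (4.62 ± 0.32 SE, adjusted p = 6.69e-05), with 1.05, 1.98, 2.58 and 1.79 CPM in LPS_scramble. None of the LPS_miR-29a or LPS_scramble libraries came near the LPS_miR-7a libraries. Rufy4, an adaptor of lysosome positioning and autophagy, averaged 22.5 ± 5.43 against 3.36 ± 0.932 CPM (2.77 ± 0.25 SE, adjusted p = 0.000309). Atp9a, an endosomal lipid flippase, was at 10.2, 14.5, 16.6 and 18.7 CPM and 2.35, 3.27, 2.46 and 2.96 CPM (2.42 ± 0.25 SE, adjusted p = 0.000545), and LPS_scramble (20.5 ± 5.49 CPM) lay on the side of LPS_miR-7a. The non-classical class I gene H2-M2, the inhibitory receptor Lag3, the eosinophil attractant Ccl24, the secreted glycoprotein Olfm4, the Notch ligand Dner, the macrophage receptor Slamf8 and the interleukin 7 receptor Il7r were also among the 12 largest, with mean levels of 5.13 to 13.9 CPM in LPS_miR-7a and log2 fold changes of 2.27 to 3.44. On the lower side, Serp1, a small protein that stabilises membrane proteins in the endoplasmic reticulum and carries a miR-7a match, was at 469, 356, 281 and 274 CPM in LPS_miR-7a and 1408, 1055, 1222 and 904 CPM in LPS_miR-29a (-1.75 ± 0.20 SE, adjusted p = 0.000759), with 627 ± 134 CPM in LPS_scramble, a mean between those of the other groups. Serp1 overlaps Eif2a on the other strand. Among other named genes, Myo18b overlaps 1700095B10Rik and Acp5 overlaps 6530413G14Rik in the same way. The actin-binding protein Avil, the angiopoietin-like factor Angptl6, the Arf6 exchange factor Psd2 and Sh2d6 completed the 12 lowest, with log2 fold changes of -2.13 to -1.58 and means of 7.49 to 15.1 CPM in LPS_miR-29a, and Angptl6 lost its call in 8 alternative fits. Of 14 tested mitochondrially encoded genes, a set chosen after the values were seen, 13 were below 0 and 4 were called lower (median -1.20), which moves with the mitochondrial shares of the libraries given above. Their part in the other results was not tested, but without structural RNA and mitochondrial genes the count of called genes was 500.

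Several programmes had few or no calls between the mimics. Of 40 genes of DNA replication, 39 of mitosis, 23 of the microRNA machinery and 22 of the Atf4 stress response, 0 were called in either direction in limma-voom with the group as its only term, with 1, 2, 4 and 5 at an unadjusted p under 0.05 and medians of 0.194, 0.129, 0.0455 and -0.213. The Atf4 list had 1 lower member with edgeR and 2 with DESeq2, and the microRNA machinery 1 higher with DESeq2, while the DNA replication and mitosis lists had 0 with both tools. Without 1 library the Atf4 list had at most 1 lower and the microRNA machinery at most 1 higher member. The medians of the mitosis and microRNA machinery lists, and above of the cytokine, interferon-stimulated and GTPase lists, changed sign in at least 1 alternative fit. In simulated data, 38.1% of changes of 0.58 on the log2 scale were recovered, against 89.8% of changes of 1 and 100% of changes of 2. The simulation used the same dispersion for every gene and no replicate effect, and it changed no gene of low count. The share of real differences that was missed is therefore not known.

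The same mimics were compared without LPS in 4 VEH_miR-7a and 4 VEH_miR-29a libraries, which share no sample with the LPS contrast. In vehicle, 172 of 11027 genes (1.56%) were called, 86 higher and 86 lower (0.78% each). These libraries held 1.18 to 5.29 M counts in VEH_miR-7a and 3.49 to 9.60 M counts in VEH_miR-29a, and VEH_miR-7a replicates 2 to 4 held 36.6% to 40.0% of their counts in structural RNA genes against 4.40% in replicate 1 and 4.50% to 19.5% in VEH_miR-29a. Without VEH_miR-7a replicate 1 or VEH_miR-29a replicate 1 the count was 356 or 277, and it was 15 and 32 without VEH_miR-7a replicate 2 or 3 and 24 and 39 without VEH_miR-29a replicate 3 or 4. Of the 402 genes called under LPS that were tested in vehicle, 337 (83.8%) had the same sign there, against 57.8% of all 10917 genes tested in both. They comprised 208 of 261 higher and 129 of 141 lower genes. Called in both conditions, always in the same direction, were 43 genes, which is 10.7% of the 402 and 25% of the 172. They included Acp5 (log2 fold change 2.36 in vehicle, adjusted p = 0.000495), Itgax (1.11, 0.0274) and Dnmt3a (0.83, 0.0193) on the higher side. On the lower side were Nr4a1 (-3.45, 0.0338), Cp (-1.31, 0.0303) and Cybb (-0.78, 0.0193). Lbp and Fos were also called lower (adjusted p = 0.013 and 0.0299), but Lbp lay under 3 counts in each VEH_miR-7a library (0 to 0.583 CPM, against 7.27 to 14.4 CPM in VEH_miR-29a) and Fos in replicates 2 and 4 (0 to 2.15 CPM over the group, against 6.44 to 9.92 CPM), as did Nr4a1 in replicate 2 (1.58 CPM), so that the size of these differences is uncertain. The medians by seed match in vehicle were 0.0340 with a miR-29a site, -0.122 with a miR-7a site and 0.00941 with neither. Of the reported miR-29 targets, 3 of 28 were higher and 2 lower (median 0.0877), and of the miR-7 targets 0 of 37 were higher and 4 lower (median -0.288). The phagocytic receptors and the lysosome genes of the study had medians of -0.0403 and 0.00552 in vehicle, with 1 and 0 members called. Other lysosomal genes had 1 higher and 2 lower of 67 (median -0.0551), and disease-associated microglia genes 1 higher and 1 lower of 25 (median -0.0436). All these counts stand beside 0.78% of all genes in each direction. The mitosis and DNA replication lists, with 0 calls under LPS, had vehicle medians of 0.732 and 0.566, with 7 of 39 and 1 of 40 members higher and 0 lower, beside 0.78% of all genes in each direction. The acute-phase genes Saa3 and Hp were at 3.58 and 1.23 CPM in VEH_miR-7a and 2.76 and 9.85 CPM in VEH_miR-29a.

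**Figure D5:**
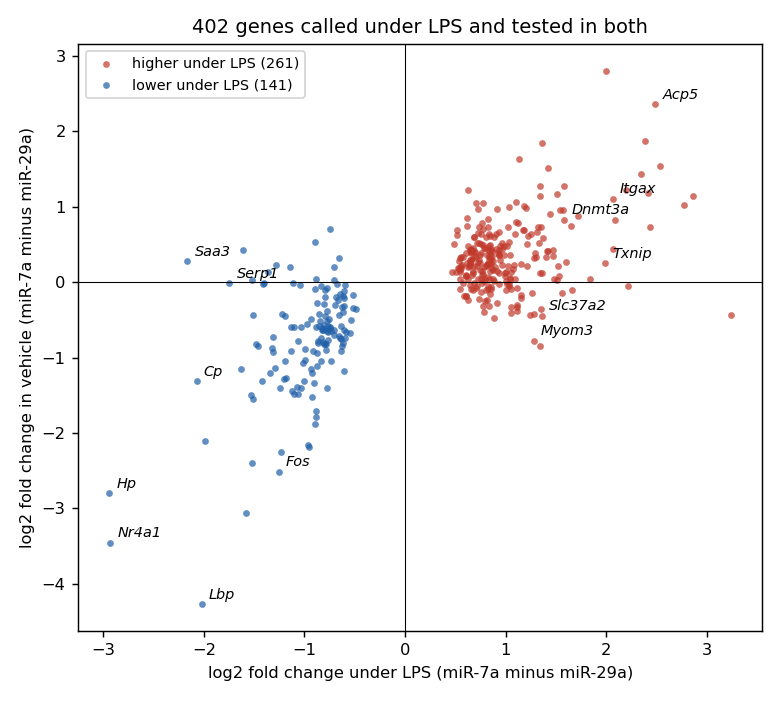
Log2 fold change (miR-7a minus miR-29a) in vehicle against that under LPS for the 402 genes called under LPS and tested in both, with genes higher under LPS in red (261) and lower ones in blue (141). Most points (337) have the same sign on both axes, as for Acp5, whereas Myom3 and Slc37a2 lie below 0 in vehicle.

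The difference between the conditions was tested as an interaction over all 16 libraries. It called 20 of 12342 genes (0.162%), 16 (0.13%) with a more positive and 4 (0.0324%) with a more negative contrast under LPS, and 1297 had an unadjusted p under 0.05. The myomesin Myom3 averaged 60.7 and 24.9 CPM in LPS_miR-7a and LPS_miR-29a, and 81.4 and 134 CPM in vehicle (difference 2.05 ± 0.25, SE, adjusted p = 0.000983). The sugar phosphate transporter Slc37a2 (1.79 ± 0.24, adjusted p = 0.00149), the secreted factor Angptl2 (1.62 ± 0.23, 0.00223) and the inhibitory microglial receptor Cd33 (1.37 ± 0.20, 0.00321) had differences in the same direction. For Cd33 the LPS_miR-7a libraries held 60, 55.7, 59.1 and 53.1 CPM and the LPS_miR-29a libraries 27.9, 24.7, 24.5 and 25.6 CPM, while vehicle means were 89.4 and 99.3 CPM. The contrasts of Txnip (1.73 ± 0.31), Csf1 (1.18 ± 0.22), Serp1 (-1.74 ± 0.32) and Gclm (-1.51 ± 0.27) also differed, with contrasts in vehicle of 0.25, -0.27, -0.01 and 0.23. The histone gene Hist1h4k (-4.12 ± 0.49) and the short gene AC154540.1 (-4.69 ± 0.63), annotated inside Eif4a2 at the position of Snora81, were called for values that were high in VEH_miR-7a, 584 and 54 CPM on average. That group holds the libraries rich in structural RNA, Hist1h4k belongs to a family of near-identical genes, and both are uncertain. The count was 156 without VEH_miR-7a replicate 1, where the balance turned to 43 more positive and 113 more negative, 103 without LPS_miR-7a replicate 1, and 6 to 13 without any other single miR-7a library, with 8 to 28 without single miR-29a libraries.

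Brox, a gene of endosomal sorting, was left out because the deposited digits allow more than 1 reading. Its LPS_miR-7a values were deposited as 66156, 78534, 99353 and 108235. With 2 decimals they correspond to 95.2, 87.1, 84.8 and 91.4 CPM of the library total, and with 3 decimals to 9.52, 8.71, 8.48 and 9.14. The LPS_miR-29a libraries stood at 83.6, 80.2, 90.2 and 88.4 CPM on the same scale. The first reading thus gives no visible difference and the second a difference of roughly an order of magnitude, and the model gave the first a posterior of 0.543, under the minimum of 0.9.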

How the data were processed

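RNA was sequenced from BV-2 cells in 32 libraries, of which 8 enter the main contrast. The values deposited by the authors are estimated counts per gene from an RNA-seq pipeline on build GRCm38, 1 column per library. Their decimal marks had been lost on the way to the table. Marks were restored with a model that weighs 0 to 3 decimals by the gene's level in the group, the condition and all libraries. Genes with a posterior under 0.9 in any compared library were left out (1437 genes with counts in the 8 libraries), and 28.6% of the values above 0 in the 32 libraries were given decimals. In simulated data, 99.9% of the values held certain were restored. Because the restoration uses group levels, it was repeated without group labels. Both runs drew on all 32 libraries, the scramble ones included. Of the 478 called genes, 269 held a value with restored decimals in the 8 libraries, a share that was not set beside all genes tested.

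Genes passing filterByExpr were tested with limma-voom (limma 3.58.1, edgeR 4.0.16, R 4.3.3) after TMM normalization, and p-values were adjusted by the Benjamini-Hochberg method. A call needs an adjusted p under 0.05 and an absolute log2 fold change over 0.3. CPM values use TMM factors over all 32 libraries. Alternatives were the replicate block, edgeR's quasi-likelihood test, DESeq2 1.42.0 (both on restored counts rounded to whole numbers), limma-trend, other scalings, filters and restorations, all 32 libraries, a GC and length correction, and leaving out each library. The limma-trend fit with the block and no correction was chosen after seeing the data. In counts simulated for LPS_miR-7a against LPS_miR-29a (13275 genes), 3 false calls were made. The simulation had the same dispersion for every gene and no replicate effect, so this number does not carry over to the real libraries.

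Named genes were the 12 highest and 12 lowest called protein-coding genes with at least 5 CPM in the higher group and 1 direction in every same-numbered pair, up to 4 called members per list and direction by adjusted p, 13 genes put forward by earlier results or the literature, and 6 genes of the interaction; 1 gene of this set is not reported here. Fold changes of other list members named in the text (Tet3, Tdg, Clec7a, Fcgr3, Nos2, Irg1, Tlr4 and Myd88), and the further members named without values, were picked after their values were seen. The members and lists were chosen with earlier results of these data known. miRNA sequences came from RefSeq (GRCm38.p6) and 3′ UTRs from GENCODE M21.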

Additional observations from a re-analysis of the deposited data

Results flagged for a closer look

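In 8 of 156 groups of 4 libraries, 1 library lay far from the other 3 in the CPM of a named gene, where chance marks about 1 in 20. In LPS_miR-29a replicate 1, Colec12 was at 156 CPM (others 134 to 137) and Irs2 at 4.70 (others 7.10 to 7.44). In LPS_miR-29a replicate 3, Txnip was at 201 CPM (others 94.3 to 107) and Fcgr2b at 104 (others 86.0 to 87.4). In LPS_miR-29a replicate 4, Lbp was at 7.15 CPM (others 17.6 to 19.3) and Ccl24 at 2.34 (others 1.15 to 1.25). Hist1h4k was at 71.4 CPM in LPS_miR-29a replicate 2 (others 28.6 to 35.1) and Psd2 at 1.55 CPM in LPS_miR-7a replicate 1 (others 3.15 to 3.29). Except for Irs2 and Hist1h4k, which were not called, the outlying library stayed on its group's side of the contrast.

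For 10 named genes the contrast of miR-7a with miR-29a differed between LPS and vehicle by the interaction test. The log2 fold change under LPS minus that in vehicle was 2.05 for Myom3, 1.79 for Slc37a2, 1.73 for Txnip, 1.62 for Angptl2, 1.37 for Cd33, 1.18 for Csf1, -1.51 for Gclm, -1.74 for Serp1, -4.12 for Hist1h4k and -4.69 for AC154540.1. The VEH_miR-7a libraries with 36.6% to 40.0% structural RNA enter every one of these differences, and their part in them was not tested.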

How the results depend on the processing

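The count of 478 genes for LPS_miR-7a against LPS_miR-29a stayed within 1.5 times under edgeR's quasi-likelihood test (496), limma-trend, other scalings, other filters, a stricter posterior and restoration without group labels (437). It moved to 891 with DESeq2, 889 with all 32 libraries in the fit, 289 of 4972 genes when only genes without lost decimals were tested, and 52 on the values as deposited, where lost marks change levels by powers of 10. Upper quartile factors gave 266 higher and 203 lower genes in place of 304 and 174. Leaving out 1 library gave 208 to 702 genes, in vehicle 15 to 356, and for the interaction 6 to 156. Restoration without group labels gave 13 genes for the interaction in place of 20.

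The replicate numbers were not taken to pair the samples, since same-numbered LPS libraries had correlations of their deviations from the group means of 0.381, 0.464, 0.0505 and 0.313, and LPS_miR-7a replicate 3 correlated best with LPS_miR-29a replicate 4 (0.283). In vehicle the same-numbered correlations were 0.323, 0.0833, 0.0939 and 0.166. All of the same-numbered correlations were thus positive, and the labels do not say whether a number marks a shared experiment. A fit that blocks on the replicate number called 1204 genes under LPS, 1087 in vehicle and 145 for the interaction. Its higher and lower counts were 17 and 3 for phagocytic receptors, 13 and 1 for the lysosome genes of the study, 21 and 3 for other lysosomal genes, 14 and 0 for disease-associated microglia genes, 1 and 9 for the LPS receptor and NF-kappa-B pathway, 1 and 5 for interferon-stimulated genes, 2 and 8 for NRF2 genes, 2 and 7 for sterol and fatty acid synthesis, 0 and 4 for miR-7 targets, 0 and 3 for the Atf4 response, 1 and 0 for DNA replication and for mitosis, and 2 and 0 for the microRNA machinery. In limma-trend the block gave 1533 genes, and 2353 after a correction for GC content and length. The difference in structural RNA share was -0.548 points in same-numbered pairs too (exact paired permutation p = 0.5, the smallest possible being 0.125).

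Of the 68 called genes among those named, 44 kept their call under every alternative in which they were tested other than the deposited values, and all 68 kept their direction there. Not each gene was tested in each alternative: 35 were when only genes without lost decimals were used, 58 after restoration without group labels, 64 at a minimum count of 50 and 66 at the stricter posterior. On the deposited values 7 named genes changed sign, to log2 fold changes of 0.65 (Psd2), 0.89 (Fos), 1.36 (Hgsnat), 7.2 (Elovl6), -6.22 (Arrdc4), 1.84 (Dnmt3b) and -2.34 (Myom3). Among uncalled genes, Pak1 turned to -0.00697 with upper quartile factors and ranged from -0.0119 (without LPS_miR-29a replicate 1) to 0.0917 when 1 library was left out, and Hist1h4k from -0.0293 (without LPS_miR-29a replicate 4) to 0.422. The cause of these changes beyond the lost marks was not tested.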

Other observations

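Among the 43 genes called under LPS and in vehicle in the same direction were several outside the lists above, picked after their values were seen. Complement component C3 was higher with miR-7a than with miR-29a by 1.34 ± 0.14 (SE) on the log2 scale under LPS and by 1.14 ± 0.23 in vehicle (limma-voom adjusted p = 0.000592 and 0.0292). The tetraspan membrane protein Ms4a7 was higher by 1.42 ± 0.14 and 1.51 ± 0.19 (adjusted p = 0.000463 and 0.0051), and Ifi30, the lysosomal thiol reductase that prepares antigens, by 1.51 ± 0.18 and 1.16 ± 0.18 (adjusted p = 0.00101 and 0.0127). On the lower side, Cpt1a, which admits long-chain fatty acids to mitochondria, had log2 fold changes of -1.53 ± 0.17 and -1.49 ± 0.31 (adjusted p = 0.000666 and 0.0303), and the metal-binding metallothionein Mt1 of -1.32 ± 0.19 and -0.88 ± 0.16 (adjusted p = 0.00346 and 0.0241).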
